A study of Mus musculus with 10 samples.

Results

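The interferon regulatory factors (IRFs) described here are the 7 mouse genes Irf1, Irf2, Irf3, Irf4, Irf5, Irf7 and Irf8, taken by symbol. All 7 were present among the 56884 gene identifiers of the count table and all 7 were among the 17622 genes tested. They were read in hippocampal bulk RNA-seq of 10 female P301S mice (the PS19 line), which carry human 1N4R Tau with the P301S mutation under the mouse Prnp promoter, and whose ovaries were left in place. At 6 months of age 5 mice received an empty (void) implant and 5 received an implant packed with 10 mm of dihydrotestosterone (DHT), an androgen that cannot be converted to estrogen. Treatment lasted 12 weeks and tissue was taken at 9 to 9.5 months. Every mouse carried the Tau transgene, so the comparison is of DHT with void within tauopathy, without a mouse lacking Tau. The libraries held 27188854 to 47113661 counts with void and 33523527 to 45947784 counts with DHT. The library numbers in the labels run from 4 to 11 for void and from 18 to 23 for DHT, and treatment and place in this order cannot be told apart.

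IRFs are transcription factors that share an N-terminal DNA-binding domain with conserved tryptophans and bind GAAA repeats, the core of the interferon-stimulated response element. Irf3 and Irf7 are activated by phosphorylation downstream of nucleic acid sensors and switch on interferon genes. Irf7 is itself induced by interferon and amplifies the response. Irf5 acts downstream of Toll-like receptors and MyD88 on inflammatory cytokine genes. Irf8 partners with the ETS factor PU.1 (Spi1) and is needed for microglia, the resident macrophages of brain, to develop. Irf1 is an interferon gamma-induced activator, Irf2 competes with it for the same sites, and Irf4 is best known from lymphocytes and dendritic cells.

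The RefSeq promoter sequences of the 3 members that rose with DHT (Irf7, Irf8 and Irf5), and of Irf1 and Irf2 for contrast, are shown because 4 short elements bound by interferon-activated factors or by the basal machinery are spread unevenly over them. Each line gives the 250 bases before the first annotated start of the gene, 5′ to 3′ on the strand of the gene, in build GRCm38.p6. Capitals mark a match to any of the 4 motifs searched. The sequences lie at chr7:141266425-141266674 on the minus strand for Irf7, and on the plus strand at chr8:120736108-120736357 for Irf8, chr6:29526375-29526624 for Irf5, chr11:53769764-53770013 for Irf1 and chr8:46739495-46739744 for Irf2.
Irf7: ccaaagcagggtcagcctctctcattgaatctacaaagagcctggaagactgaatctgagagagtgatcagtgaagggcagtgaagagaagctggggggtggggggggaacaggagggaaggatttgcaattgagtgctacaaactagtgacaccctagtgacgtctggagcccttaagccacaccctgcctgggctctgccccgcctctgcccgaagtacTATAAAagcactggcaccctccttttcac
Irf8: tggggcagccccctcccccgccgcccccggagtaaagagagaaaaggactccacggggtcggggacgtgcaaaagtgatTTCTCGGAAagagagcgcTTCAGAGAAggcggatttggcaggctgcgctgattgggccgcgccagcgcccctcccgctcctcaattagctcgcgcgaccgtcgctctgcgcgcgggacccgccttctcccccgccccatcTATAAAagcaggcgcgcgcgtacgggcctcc
Irf5: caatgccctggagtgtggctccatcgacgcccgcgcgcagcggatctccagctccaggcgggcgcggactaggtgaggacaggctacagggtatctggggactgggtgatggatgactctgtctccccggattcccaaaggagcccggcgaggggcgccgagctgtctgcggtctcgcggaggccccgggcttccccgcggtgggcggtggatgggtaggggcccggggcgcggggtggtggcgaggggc
Irf1: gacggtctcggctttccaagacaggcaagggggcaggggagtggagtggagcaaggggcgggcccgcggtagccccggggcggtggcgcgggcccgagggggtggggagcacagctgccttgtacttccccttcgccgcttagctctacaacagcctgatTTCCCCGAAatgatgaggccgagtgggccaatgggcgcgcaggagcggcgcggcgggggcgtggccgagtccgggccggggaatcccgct
Irf2: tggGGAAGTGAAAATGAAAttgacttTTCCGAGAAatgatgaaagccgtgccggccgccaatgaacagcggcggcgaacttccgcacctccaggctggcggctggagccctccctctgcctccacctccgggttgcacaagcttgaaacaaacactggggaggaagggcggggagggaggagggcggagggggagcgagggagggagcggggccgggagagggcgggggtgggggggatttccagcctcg

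The 4 motifs were searched on both strands of 300 bases per promoter, 250 before and 50 after the start, in 9 promoters of the 7 members and in all 32841 promoters of the reference table. The interferon-stimulated response element, spelled as GAAA, any 2 bases and GAAA, was present in 3.44% of all promoters and among the members in that of Irf2, its first base 241 bases before the start. There it overlapped an ETS-IRF composite element (GGAA, any 2 bases and GAAA, in 2.72% of all promoters) that began 247 bases before the start. The gamma-activated site, spelled TTCNNNGAA and held by 8.30% of all promoters, was found 171 and 153 bases before the start of Irf8, 90 bases before that of Irf1 and 224 bases before that of Irf2. A TATA box (TATAAA, 13.6% of all promoters) lay 29 bases before the start of Irf7, 31 before that of Irf8 and 26 before that of Irf4. None of the 4 spellings occurred in the windows of Irf3 or Irf5. A match is a run of letters and not a measured binding site.

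Irf7, Irf8 and Irf5 rose with DHT, and Irf1, Irf2, Irf3 and Irf4 did not pass the test. Irf7 rose 4.54-fold, Irf8 2.27-fold and Irf5 1.79-fold in edgeR's quasi-likelihood test with an adjusted p-value (Benjamini-Hochberg, over all 17622 genes) under 0.05. The 3 of 7 members called higher stand against 5.22% of all tested genes (920) called higher, and the 2 members past a log2 fold change of 1 (Irf7 and Irf8) against 2.17%. No member was lower, against 0.261% of all genes, and none was lower at an unadjusted p under 0.05 in edgeR, DESeq2 or limma-voom. In 3 members (Irf5, Irf7 and Irf8) every DHT mouse lay above every void mouse, which held for 5.39% of all genes. The median log2 fold change was 0.24 over the 7 members and 0.0094 over all tested genes.

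**Figure D1:**
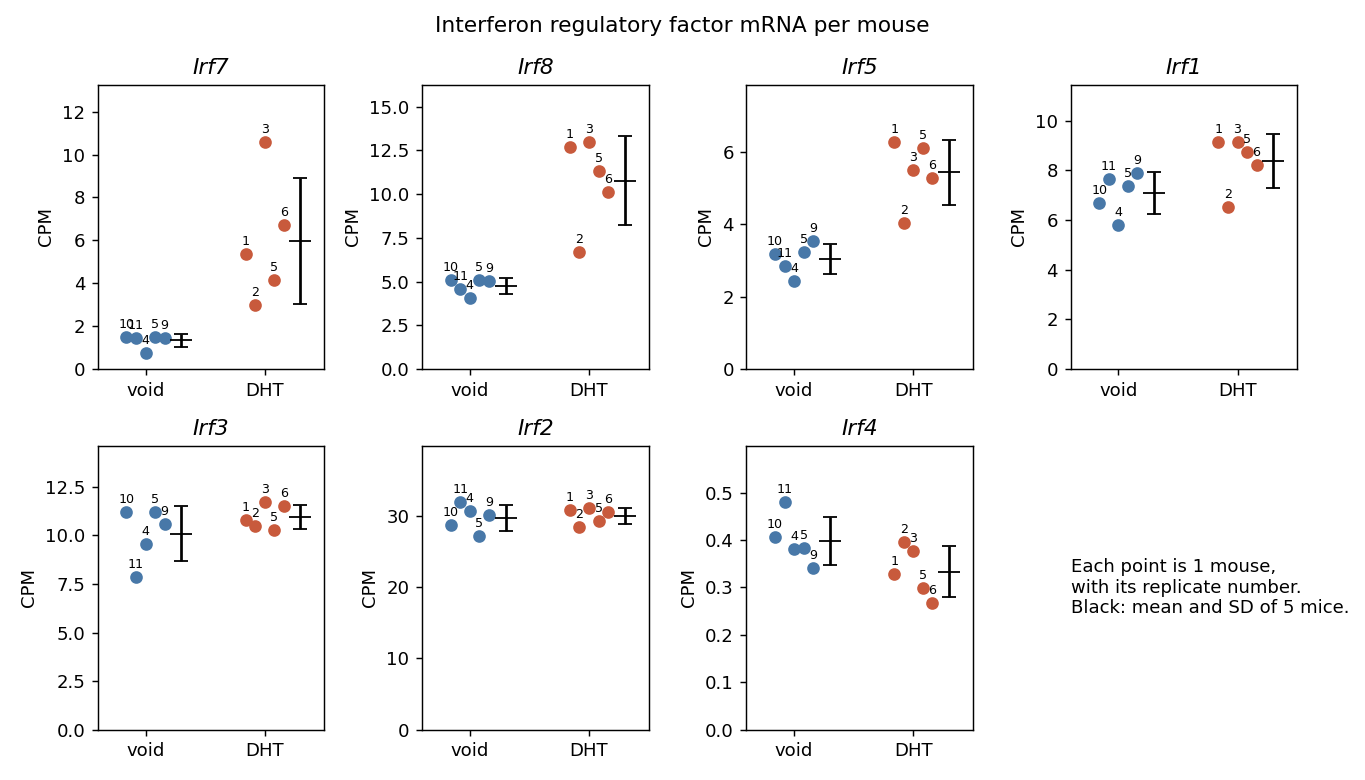
CPM, the count scaled to library size, of each member in each mouse, void in blue and DHT in red, with the replicate number above each point and the mean and SD of 5 mice in black. The groups do not overlap for Irf7, Irf8 and Irf5, and overlap for Irf1, Irf2, Irf3 and Irf4; DHT 2 is the DHT mouse nearest to void for Irf7, Irf8 and Irf5.

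Irf7, the interferon-inducible amplifier, had the largest fold change of the members. Levels are given as CPM, the count per mouse scaled to its TMM-adjusted library size. With void it stood at 1.51, 1.44, 0.761, 1.47 and 1.46 CPM in replicates 10, 11, 4, 5 and 9, and with DHT at 5.36, 2.99, 10.6, 4.13 and 6.70 CPM in replicates 1, 2, 3, 5 and 6. Void 4 stood below the 4 other void mice, which lay close together, while the DHT mice were spread widely, DHT 3 highest and DHT 2 lowest, with no overlap between the groups. The mean went from 1.33 ± 0.318 CPM to 5.96 ± 2.96 CPM (SD, n = 5 each), and the log2 fold change was 2.18 ± 0.33 (SE, edgeR adjusted p = 0.00761). It ranked 57 of all tested genes by size of rise. Irf7 counts were low, 36 to 508 per mouse, and the coefficient of variation among DHT mice was 49.6%.

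Irf8, the myeloid lineage factor, rose with the lowest adjusted p-value of the members. It was read at 5.09, 4.55, 4.04, 5.11 and 5.03 CPM in void replicates 10, 11, 4, 5 and 9, and at 12.7, 6.71, 13, 11.3 and 10.1 CPM in DHT replicates 1, 2, 3, 5 and 6. The void mice were tightly grouped, 4 DHT mice stood well above them, and DHT 2 lay between. The means were 4.76 ± 0.466 and 10.8 ± 2.56 CPM (SD, n = 5 each), and the log2 fold change was 1.18 ± 0.17 (SE, edgeR adjusted p = 0.00670).

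Irf5, the Toll-like receptor effector, had the smallest of the 3 rises. Void replicates 10, 11, 4, 5 and 9 held 3.17, 2.85, 2.43, 3.23 and 3.54 CPM and DHT replicates 1, 2, 3, 5 and 6 held 6.28, 4.02, 5.51, 6.10 and 5.27 CPM. Again void 4 was the lowest void mouse and DHT 2 the lowest DHT mouse, and the groups did not overlap. The means were 3.04 ± 0.421 and 5.44 ± 0.894 CPM (SD, n = 5 each), and the log2 fold change was 0.84 ± 0.15 (SE, edgeR adjusted p = 0.00990). For Irf5, Irf7 and Irf8 the exact two-sided permutation test on CPM gave p = 0.00794 each, the smallest value that 5 mice against 5 allow.

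Irf1, the interferon gamma-induced activator, was read at 6.68, 7.64, 5.79, 7.35 and 7.88 CPM in void replicates 10, 11, 4, 5 and 9 and at 9.15, 6.54, 9.15, 8.74 and 8.22 CPM in DHT replicates 1, 2, 3, 5 and 6. Here 4 DHT mice lay above every void mouse and DHT 2 lay among the void mice. The log2 fold change of Irf1 was 0.24 ± 0.12 (SE, edgeR adjusted p = 0.333), and the exact permutation test on CPM gave p = 0.0714 (0.0952 on log2 CPM). Irf3, the latent sensor-activated factor, ranged from 7.85 to 11.2 CPM with void (median 10.6) and from 10.3 to 11.7 CPM with DHT (median 10.8), a log2 fold change of 0.12 ± 0.10 (SE, edgeR adjusted p = 0.632). For Irf3, 3 DHT mice lay within the void range and 2 just above it.

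Irf2, the competitor of IRF1, differed least of the 7. Its mean was 29.7 ± 1.82 CPM with void and 30.1 ± 1.15 CPM with DHT (SD, n = 5 each), and the log2 fold change was 0.02 ± 0.06 (SE, edgeR adjusted p = 0.934). The sign of that value turned under other models. Irf4 was near the limit of these libraries at 9 to 18 counts per mouse, with 0.398 ± 0.0510 CPM for void and 0.333 ± 0.0528 CPM for DHT (SD, n = 5 each). The ranges of Irf4 overlapped, its log2 fold change was -0.24 ± 0.20 (SE, edgeR adjusted p = 0.715), and a difference was not detectable at this depth.

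The 3 rises were compared with each other by the log2 ratio of their CPM in each mouse, as part of all 21 pairs of members. The log2 ratio of Irf7 to Irf8 went from -1.84 ± 0.28 with void to -0.94 ± 0.49 with DHT (SD, n = 5 each), a difference of 0.89 (exact permutation p = 0.00794, adjusted over the 21 pairs 0.0111). Irf7 gained on Irf5 by 1.21 and Irf8 gained on Irf5 by 0.31, each with the same exact permutation p-values. Among Irf1, Irf2, Irf3 and Irf4 only the ratio of Irf1 to Irf4 passed, with a log2 difference of 0.46 (exact permutation p = 0.0317, adjusted 0.0417), and its groups overlapped.

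Per kilobase of exon, where levels of different genes can be set side by side, the order with void was Irf2 (4.02 CPM per kb), Irf3 (2.93), Irf1 (1.78), Irf5 (1.05), Irf8 (0.675), Irf7 (0.352) and Irf4 (0.0812). Each neighbouring pair kept this order in 5 of 5 void mice without overlap of their ranges. With DHT the means per kb were 4.07 for Irf2, 3.18 for Irf3, 2.10 for Irf1, 1.87 for Irf5, 1.58 for Irf7, 1.53 for Irf8 and 0.0680 for Irf4. The ranges of Irf1 and Irf5, of Irf5 and Irf7, and of Irf7 and Irf8 then overlapped, and Irf7 lay above Irf8 in 2 of 5 DHT mice. The share of Irf7 in the summed level of the 7 genes per kb was 3.21% with void and 10.6% with DHT, while the share of Irf2 was 37.0% and 28.5%. Exon lengths come from GENCODE M21 and may differ from those counted.

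**Figure D2:**
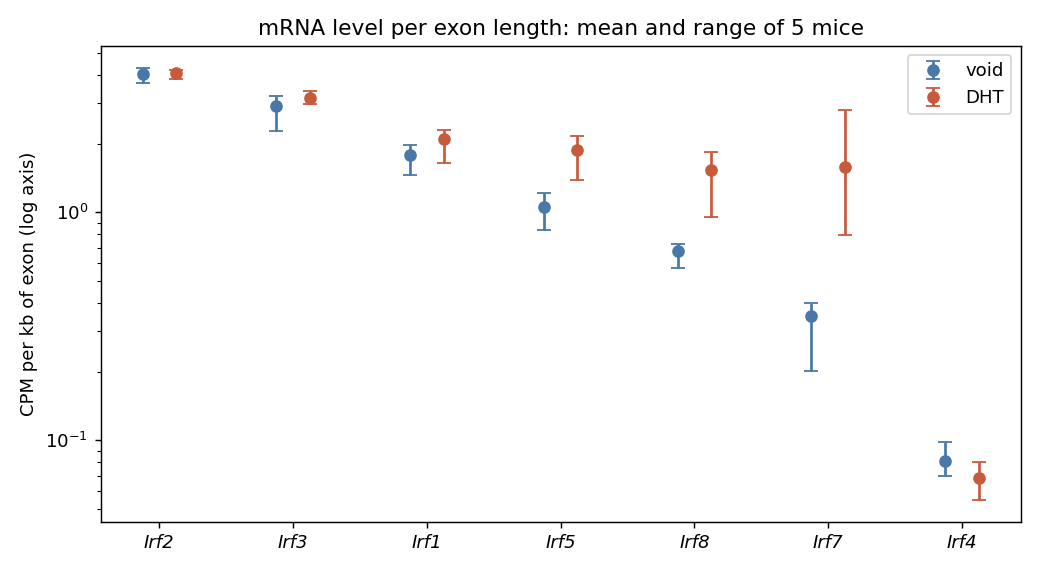
Mean level per kilobase of exon (log axis) of each member with void (blue) and DHT (red), with bars from the lowest to the highest of 5 mice. With void the 7 genes are separate steps from 4.02 for Irf2 down to 0.0812 for Irf4, and with DHT the ranges of Irf5, Irf7 and Irf8 overlap.

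Of 12 microglia genes 6 were called higher, with a median log2 fold change of 0.54, and their summed level was 498 to 585 CPM with void and 697 to 1013 CPM with DHT. DHT 1 had the highest microglia sum, whereas DHT 3 was highest for Irf7 and Irf8. The complement gene C1qa had the highest log2 fold change of the 12, 1.30, and the receptor genes Csf1r and Cx3cr1 had 0.55 and 0.54 (edgeR adjusted p at most 0.0251). P2ry12 had the lowest, 0.16, and P2ry12, Tmem119, Sall1, Siglech, Olfml3 and Fcrls were not called. The rise was thus uneven over the list. In bulk tissue more microglia and more RNA per microglial cell cannot be told apart. Relative to the mean log2 CPM of these 12 genes in the same mouse, Irf7 was still higher with DHT by 1.48 (exact permutation p = 0.00794, no overlap) and Irf8 by 0.59 (exact permutation p = 0.0159, ranges overlapping). For Irf5 the difference was 0.27 (exact permutation p = 0.0635). On this scale Irf2 was lower by 0.53 and Irf4 by 0.77, each with exact permutation p = 0.00794, and Irf3 by 0.42 (exact permutation p = 0.0238). The median of all tested genes on a scale set by these 12 genes was -0.53, close to the value of Irf2.

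Other cell lists stood as follows. All 12 choroid plexus genes had a positive log2 fold change, 4 were called higher, the median was 2.11, and their summed level was 118 to 1897 CPM with void and 2154 to 3045 CPM with DHT. The mean log2 CPM of this list was 1.58 to 5.63 with void and 5.95 to 6.72 with DHT, without overlap. A model with this mean as a covariate therefore separates choroid plexus RNA from treatment poorly. In it Irf7 had a log2 fold change of 2.37 ± 0.59, Irf8 1.17 ± 0.29 and Irf5 0.77 ± 0.25 (SE). The SE without the covariate were 0.33, 0.17 and 0.15. With it no gene of the table passed (edgeR adjusted p = 0.552 for Irf7 and Irf8 and 0.564 for Irf5). At an unadjusted p under 0.05 that model held 977 genes higher and 236 lower, Irf5, Irf7 and Irf8 among the former. The astrocyte gene Gfap rose with a log2 fold change of 1.18 (edgeR adjusted p = 0.00761), as the single member of 7 astrocyte genes called. The lymphocyte list, of interest for Irf4, summed to 1.01 to 1.57 CPM with void and 1.20 to 2.28 CPM with DHT, and 7 of its 9 genes were too low to test. The 2 tested genes, the T cell genes Cd4 and Trac, had log2 fold changes of 0.26 and -0.011 (edgeR adjusted p = 0.680 and 0.990). Summed over 5 mice, the untested T cell genes Cd8a, Cd3e and Cd3d had 15, 9 and 1 counts with void and 62, 29 and 13 with DHT. The cytotoxic granule gene Nkg7 had 5 and 22 counts, and the B cell genes Cd79a and Ms4a1 had 15 and 3 with void and 15 and 0 with DHT. The border macrophage list summed to 2.45 to 15.5 CPM and 5.57 to 12.7 CPM. The part of choroid plexus, astrocyte or lymphocyte RNA in the IRF values was not tested.

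**Figure D3:**
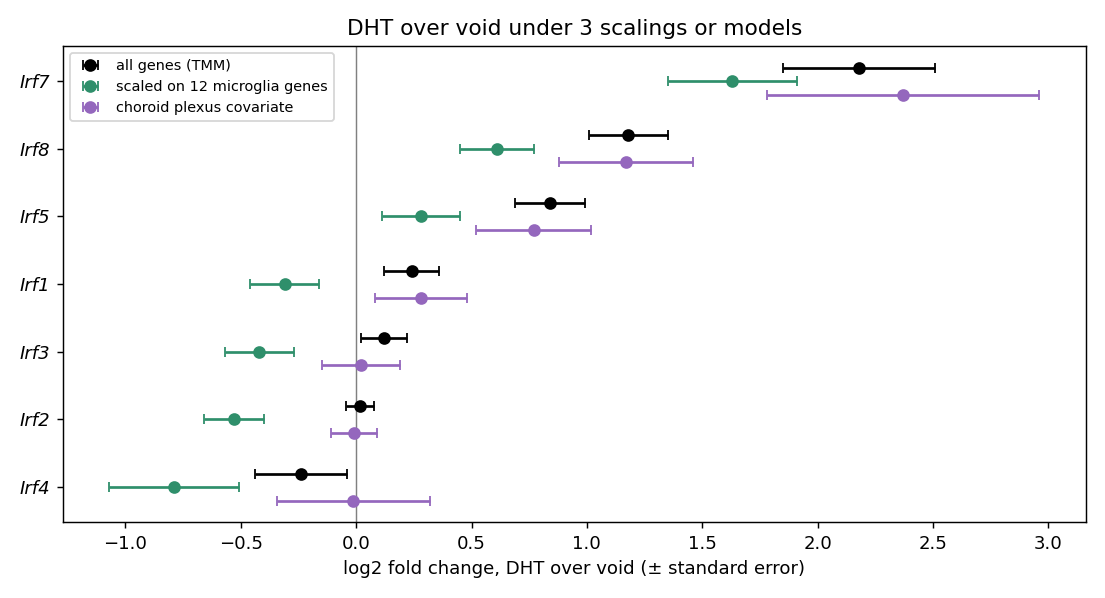
Log2 fold change, DHT over void, with its standard error for each member under 3 edgeR models: all genes as the scale (black), library sizes scaled on 12 microglia genes (green) and the choroid plexus list as a covariate (purple). Irf7, Irf8 and Irf5 lie above 0 in each, Irf5 at 0.28 ± 0.17 and not called when scaled on microglia genes. On that scale Irf1, Irf2 and Irf3 turn negative, and the median of all tested genes is -0.53. Irf2 also lies just below 0, at -0.011, with the choroid plexus covariate.

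Upstream of the IRFs, of 15 tested sensors and adaptors that feed IRF activation 8 rose and none was called lower, with a median log2 fold change of 0.75. They included Unc93b1, the chaperone of endosomal Toll-like receptors (0.92, edgeR adjusted p = 0.00948), the TLR4 adaptor gene Ticam2 (1.11, 0.0133), the DNA sensor gene Tlr9 (1.07, 0.0139) and the RNA sensor gene Tlr7 (1.0, 0.0149), while Tlr8 was too low to test. The other called genes of this list were Zbp1 (2.41, edgeR adjusted p = 0.0161), Ddx58 (0.92, 0.0217), Ifih1 (0.94, 0.0223) and Tmem173 (0.52, 0.0361). Zbp1 had the highest log2 fold change of the list, with as few as 3 counts in a mouse. The count of this list was 2 without void 11 and 5 without void 10, void 4 or DHT 1. Of the 12 kinases and scaffolds that phosphorylate IRFs or hold them at the sensor, none passed in edgeR, and the median was 0.071. There Irak4 had an unadjusted p under 0.05 in edgeR (log2 fold change 0.53, adjusted p = 0.0791), and DESeq2 called 1 gene of the list. Tbk1, the IRF3 kinase, had a log2 fold change of -0.04.

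Interferon transcripts themselves were almost absent from the libraries. Of 14 interferon genes 3 had a count in any mouse, 5 counts over all 10 mice: 3 of Ifng, 1 of Ifnb1 and 1 of Ifnz. A count of 0 allows a level of up to 0.110 CPM in the shallowest library, for counting error only. Of 5 tested interferon receptors Ifnlr1, the lambda receptor chain, was called at 0.333 and 0.692 CPM (log2 fold change 1.03, edgeR adjusted p = 0.0292), a call lost without any 1 of void 10, void 11, void 4, DHT 1, DHT 3, DHT 5 or DHT 6, while Il10rb was too low to test. Of 12 JAK-STAT genes and their feedback inhibitors 3 rose: Usp18, which dampens interferon receptor signalling (2.42, edgeR adjusted p = 0.00670), Stat3 (0.37, 0.0227) and the cytokine inhibitor gene Socs3 (0.94, 0.0321). This count was 1 without void 11, void 4, DHT 1 or DHT 3.

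Among 8 tested partners and corepressors of IRFs 2 rose. Ikzf1, the lymphoid and myeloid factor IKAROS, had a log2 fold change of 0.74 (edgeR adjusted p = 0.00996) and Spi1, the PU.1 partner of IRF8, 0.88 (0.0166). This count was 1 without void 11 or DHT 1. The IRF2-binding corepressor genes Irf2bp1, Irf2bp2 and Irf2bpl had log2 fold changes of 0.11, 0.07 and 0.05, and Spib, Batf and Batf2 were too low to test.

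**Figure D4:**
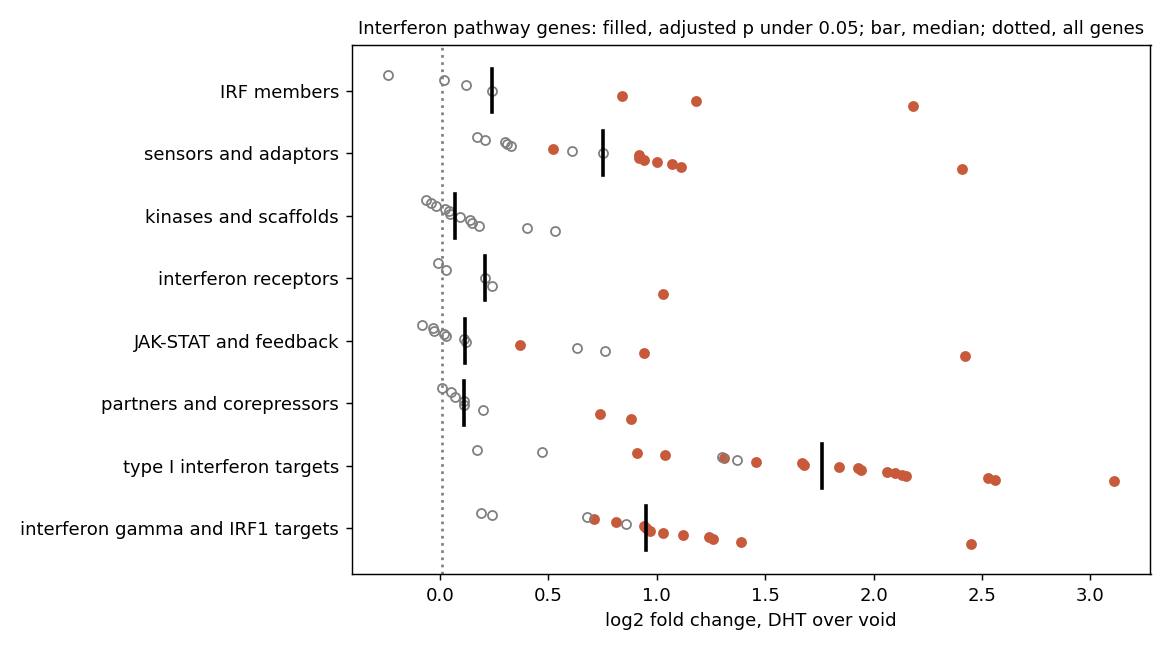
Log2 fold change, DHT over void, of each tested gene of the IRF members and of 7 pathway lists, filled red where the edgeR adjusted p was under 0.05, with the list median as a bar and the median of all genes (0.0094) dotted. Both target lists lie to the right (medians 1.76 and 0.95), the kinases and scaffolds at 0.071.

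Downstream, 16 of 20 type I interferon target genes rose, none was called lower, and the median log2 fold change was 1.76. Ifi27l2a led by p-value (log2 fold change 2.56, edgeR adjusted p = 0.00670), followed by the antiviral gene Ifit3 (1.84), the virion tether gene Bst2 (1.94) and the chemokine gene Cxcl10 (3.11), each with edgeR adjusted p = 0.00761. 10 of the 20 were called without void 11. Of 15 tested interferon gamma and IRF1 targets 11 rose, with a median of 0.95, although Irf1 itself did not pass. They included the MHC class I light chain gene B2m (0.94, edgeR adjusted p = 0.00931), the GTPase genes Irgm1 (1.12, 0.0130) and Gbp3 (1.26, 0.0256), and the peptide transporter gene Tap1 (0.95, 0.0169). This count was 3 without void 11, void 4, DHT 1 or DHT 3 and 6 without void 10, and Ciita was too low to test.

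Over the mice, the mean log2 CPM of the 20 type I targets was 0.53 to 1.44 with void and 1.72 to 3.34 with DHT. DHT 3 was highest and DHT 2 lowest for both Irf7 and the target mean, and void 4 was lowest of all for both. As deviations from the group means over the 10 mice, which share depth and library with all genes, Irf7 was most like the 2-5A synthetase-like gene Oasl2 (Pearson r = 0.958), Ang (0.941) and Slc52a3 (0.939). Irf8 was most like the Toll-like receptor homologue gene Cd180 (r = 0.984), Treml2 (0.963) and Itga5 (0.960), and Irf5 most like Rsu1 (r = 0.962), Rgs3 (0.940) and Gusb (0.935). Over the 21 pairs of members the same measure ran from -0.54 (Irf2 with Irf3) to 0.88 (Irf5 with Irf8). Irf1, which did not pass, had 0.87 with Irf5, 0.85 with Irf8 and 0.74 with Irf7. With the microglia list mean it was 0.66 for Irf8, 0.56 for Irf5, 0.39 for Irf1 and 0.35 for Irf7. For Irf3, Irf2 and Irf4 it was 0.29, 0.04 and -0.01. The 3 genes named for each member are the highest of 17622 tested genes, members left out, a search that favours high values by itself. Of them only Oasl2, Cd180 and Gusb were called. All these values are descriptions of 10 mice.

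**Figure D5:**
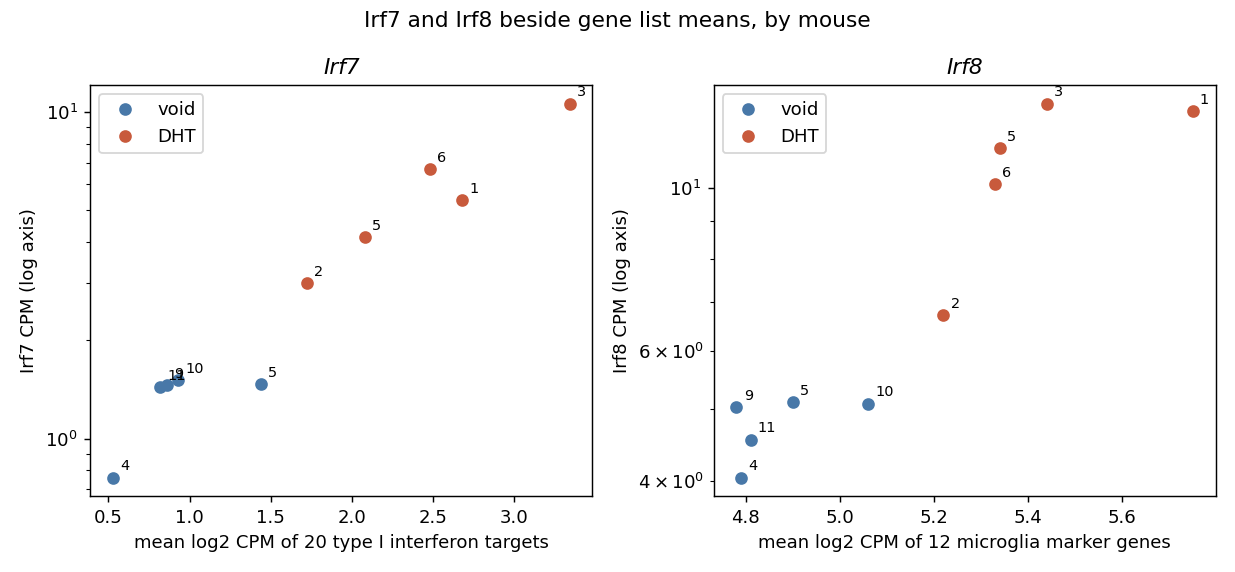
Irf7 against the mean log2 CPM of 20 type I interferon targets, and Irf8 against that of 12 microglia genes, each point 1 mouse with its replicate number, void blue and DHT red, vertical axes logarithmic. DHT 3 is highest and void 4 lowest for both genes, and DHT 2 is the lowest DHT mouse in both panels.

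Genes on the opposite strand overlap exons of 4 members, and the sources used here do not give whether counting used strand. Irf5 shares 411 exon bases with Tnpo3, which stood at 103 and 98.7 CPM (log2 fold change -0.06, edgeR adjusted p = 0.603). Irf7 shares 45 bases with Phrf1 (-0.08, edgeR adjusted p = 0.694). Irf3 shares 88 bases with Bcl2l12 (0.54, edgeR adjusted p = 0.193) and Irf1 135 with Gm17334 (0.08, 0.893). Whether reads of Tnpo3 or Phrf1 entered the counts of Irf5 or Irf7 was not tested.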

How the data were processed

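The deposited table holds raw counts per gene for 10 hippocampal mRNA libraries, 5 per group, which the authors made from paired-end reads. The study's methods name mm10, and the submitters' processing notes list GRCm39, STAR 2.7.10b and DESeq2 1.42.0. The annotation release, strand setting and treatment of multi-mapping reads were not given in the sources used here. Groups were taken from the sample labels. Of 56884 Ensembl identifiers 91.3% were matched to symbols of GENCODE M21, and coordinates of RefSeq promoters are those of GRCm38.p6.

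Counts were filtered by expression, scaled by TMM and tested with the quasi-likelihood test of edgeR 4.0.16 in R 4.3.3, DHT against void, with no covariate and Benjamini-Hochberg adjustment over 17622 genes. CPM are counts scaled to the TMM-adjusted library size. Exact two-sided permutation tests over 252 splits compared the CPM of single members, and log2 CPM with a prior count of 2 for ratios and values relative to microglia genes. The code was tested on simulated counts. Alternatives were DESeq2, limma-voom (limma 3.58.1), other scalings and filters, leaving out each mouse, a choroid plexus covariate and scaling on 12 microglia genes. The members and lists were chosen with earlier results of these data known. All 7 members are named, with up to 4 called genes per list by lowest p, genes too low to test, and the 3 genes most like each member that rose. Some genes that this rule names are not reported here. Irak4, Tbk1, Zbp1, Ddx58, Ifih1, Tmem173 and the Irf2bp genes were named after their values were seen. Each library was taken as 1 mouse, which the labels number but do not describe further. If samples shared an animal, p-values would measure technical spread only.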

Additional observations from a re-analysis of the deposited data

Results flagged for a closer look

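Of 14 groups of 5 mice (7 members, void and DHT), 1 had a mouse apart from the rest: for Irf7, void 4 was the lowest void mouse, with a gap to its nearest neighbour of 0.900 of the range of the group, above the limit of 0.71. Chance would flag about 0.70 of 14 groups. Without void 4 the log2 fold change of Irf7 was 2.02.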

How the results depend on the processing

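The 3 members called higher stayed 3, with Irf5, Irf7 and Irf8 each past the threshold, under DESeq2, limma-voom, 2 other scalings, 2 other filters and without any 1 mouse. Their log2 fold changes without 1 mouse were 0.75 to 0.93 for Irf5, 1.84 to 2.35 for Irf7 and 1.08 to 1.31 for Irf8. Without 1 mouse the members called higher were 3 to 3 and lower 0 to 0, and all genes called 351 to 1072 higher and 5 to 77 lower, against 920 and 46 with all mice. DESeq2 called 233 genes lower. With the choroid plexus covariate, whose values do not overlap between the groups, 0 members were called higher, and 0 of all genes higher and 0 lower. Scaled on microglia genes, 437 genes were higher, 12565 lower, and 3 members lower (Irf2 at -0.53, Irf3 at -0.42 and Irf4 at -0.79), with Irf1 at -0.31 and Irf5 at 0.28 not called. Irf2 changed sign under DESeq2 (-0.012), DESeq2 size factors (-0.010) and the choroid plexus covariate (-0.011), and ranged from -0.027 to 0.037 without 1 mouse. The cause was not tested. With at least 10 counts in every sample, Irf4 had no value. No paired analysis was possible because the labels give no pairing of void with DHT mice. The paper states that implants were randomized among littermates, and the labels do not give the litter. Depth limits Irf4 and the interferon genes, and 5 mice a group allow no exact p below 0.00794.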
